A study of Mus musculus with 20 samples.

Results

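The axon guidance ligands and receptors were the 69 genes, of 37561 in the deposited tables of the series, whose symbols belong to the semaphorins, plexins, neuropilins, ephrins, Eph receptors, Slits, Robo receptors, netrins, and the Unc5 receptors with Dcc. The rule that chose them used symbols alone and no measured value, and they were then grouped by family. The choice was nevertheless made with earlier results of these data known. Their transcripts were followed by RNA-seq in mouse ESD3 cells, an embryonic stem cell line of strain 129s2/SvPas kept on mouse embryo fibroblast feeders. The control line expressed an shRNA against luciferase and the HPRT knockdown line an shRNA against HPRT, the enzyme that salvages hypoxanthine and guanine. Spherical neural masses (SNM) of both lines were driven toward dopaminergic neurons and were collected daily up to day 4 and on alternate days until day 14, with 1 library per line and day (20 in all). The transduced cells were selected with puromycin, each hairpin was carried by 1 line, and the RNAs collected at a time point were pooled, so there was no replicate within a day. The tests below therefore set the mean difference against its spread over days, and their p-values carry no information on other lines of either kind. Because these are bulk samples, fewer cells of a type and less RNA per cell cannot be told apart.

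Growing axons read their surroundings through a small set of ligand and receptor families. Secreted Slits repel axons that carry Robo receptors, while netrins attract axons through Dcc and repel them through Unc5 receptors. Ephrins are held in the membrane and act on Eph receptor tyrosine kinases by cell contact, often in both cells that touch. Semaphorins act through plexins, and most secreted class 3 semaphorins need a neuropilin as co-receptor. The floor plate at the ventral midline of the neural tube is a classical source of netrin-1 and Slits, and several of these genes are also used outside neurons, for example by glia and blood vessels.

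The largest mean differences between the lines among the tested members were those of Robo3, Plxnb3 and Slit2, and their promoters are shown for that reason. Each sequence is the 250 bases before the annotated start in RefSeq (build GRCm38.p6, 5′ to 3′ on the strand of the gene), at chr9:37433176-37433425 on the minus strand for Robo3, chr5:47982905-47983154 on the plus strand for Slit2 and chrX:73756853-73757102 on the plus strand for Plxnb3. Capitals mark GGGCGG, the core of a GC box, read on both strands with overlapping matches counted.
Robo3: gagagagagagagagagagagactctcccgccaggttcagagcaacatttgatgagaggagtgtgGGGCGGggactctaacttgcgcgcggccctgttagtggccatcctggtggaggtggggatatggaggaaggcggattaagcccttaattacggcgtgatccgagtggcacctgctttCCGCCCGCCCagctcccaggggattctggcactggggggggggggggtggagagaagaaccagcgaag
Slit2: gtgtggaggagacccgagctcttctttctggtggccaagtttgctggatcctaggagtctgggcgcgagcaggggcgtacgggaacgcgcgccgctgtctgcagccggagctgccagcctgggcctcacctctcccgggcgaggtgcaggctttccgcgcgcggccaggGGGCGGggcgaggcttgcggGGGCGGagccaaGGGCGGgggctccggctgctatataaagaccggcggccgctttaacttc
Plxnb3: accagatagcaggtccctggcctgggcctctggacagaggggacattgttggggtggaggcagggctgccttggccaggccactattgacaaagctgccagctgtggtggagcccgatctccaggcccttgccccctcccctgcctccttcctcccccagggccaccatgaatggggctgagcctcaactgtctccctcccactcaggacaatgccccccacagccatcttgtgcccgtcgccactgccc
The Robo3 and Slit2 promoters each held 3 matches to GGGCGG and that of Plxnb3 held 0. The same letters were found in 32.7% of 32851 mouse promoters of this table and in at least 1 promoter of 44 of the 59 members that it contains. Here and below a member was counted if any of its promoters matched, and some members have several. Member counts and promoter shares are therefore in unlike units. The Slit2 promoter also held 1 TATAAA, which was present in 12.4% of all promoters and in 2 of the 59 members. TGTTTAC, the letters of a forkhead site, were in 3.17% of all promoters and in 0 of the 59. A match describes these windows only.

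The targeted gene was examined first. Hprt stood at 17.4% of the control in the knockdown library of day 0 and at 3.12% in that of day 14, and it was the lower of the libraries on all 10 days, with a mean log2 ratio of -4.002 ± 0.89 (SD, n = 9 days, limma adjusted p = 1.24e-05). All ratios below are log2 values, HPRT knockdown over control, taken within the table of a day, and means are given with their SD over the 9 days other than day 6, which the study set aside as discrepant. Day 6 is given separately. Of the 69 members, 64 passed a filter at a typical log2 normalized count of 4, judged over the tables of both lines, while Epha6, Epha8, Epha10, Robo4 and Ntn5 were below it and were not tested. Reads could be rebuilt for 46 members, for which normalized counts are given, and for the others only ratios. Size factors of the 20 libraries ranged from 0.782 to 1.52, and the factor of the knockdown library lay between 0.571 times (day 3) and 1.48 times (day 0) that of its control. Lanes of single libraries are not given in the sources used here.

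Marker lists of cell types also differed between the lines, and their values stand beside the results that follow. The floor plate markers Shh, Foxa1, Foxa2 and Spon1 were each higher in the knockdown line, with a median mean ratio of 2.37, and the summed normalized counts of the 3 of them with rebuilt reads ran from 725 to 2352 in the control line and from 2698 to 9946 in the knockdown line. Of 9 neuron markers past the filter, 7 were lower and the median was -1.88, with summed counts of 5 markers between 3808 and 15196 in the control and between 1911 and 5601 in the knockdown libraries. Among 7 markers of radial glia and astrocytes, 6 were higher, with a median of 1.196 and summed counts of 4 markers of 2210 to 5551 in the control and 2243 to 12283 in the knockdown. The oligodendrocyte lineage list had 4 of 9 higher (median 2.19), and its median ratio moved from -0.09 on day 0 to 5.15 on day 10 and 4.17 on day 14. Summed counts of 5 of those markers lay between 2220 and 8943 in the control and between 5462 and 55565 in the knockdown libraries. All 7 markers of pluripotent cells were lower (median -2.78), with summed counts of 5 of them from 2645 to 9418 in the control and from 83.3 to 7706 in the knockdown. Of 5 endothelial markers 2 were lower (median -0.50), with sums of 265 to 1959 in the control and 55.4 to 1282 in the knockdown. Of 7 fibroblast markers 2 were lower (median -0.43), with sums of 3 of them of 1658 to 15878 in the control and 1211 to 5570 in the knockdown. The defining neuronal markers Tubb3, Dcx and Stmn2 passed the filter, while Rbfox3 was below it. The part of these differences in the results below was not tested.

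The first comparison asked which guidance genes differed between the lines through the course. Of the 64 members, 32 differed (limma, adjusted p under 0.05 over all 13468 genes tested), with 19 higher and 13 lower in the knockdown line. Among all genes tested 52.9% differed, 26.4% higher and 26.5% lower, so the members differed about as often as genes in general. The median of the members' mean ratios was 0.13, and that of all genes was 0.006. Without day 4 the median of the members was 0.06 and without day 14 it was 0.19. Members of the ligand families were higher in 12 and lower in 6 of 34 cases, with a median of 0.30. In the receptor families 7 were higher and 7 lower of 30, with a median of -0.09. The sign of the ratio was the same on 9 of 9 days for 16 of the 32. The same count was not made over all genes called, so it cannot be set against genes in general. Without the pairing of the lines by day 24 differed, and the calls of Epha2, Epha7, Efna3, Ntn4, Plxna3, Sema3c, Sema3g, Sema4g and Sema5a were lost. With day 6 kept 28 members differed, 14 higher and 14 lower, beside 6188 of the 13468 genes tested.

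**Figure D1:**
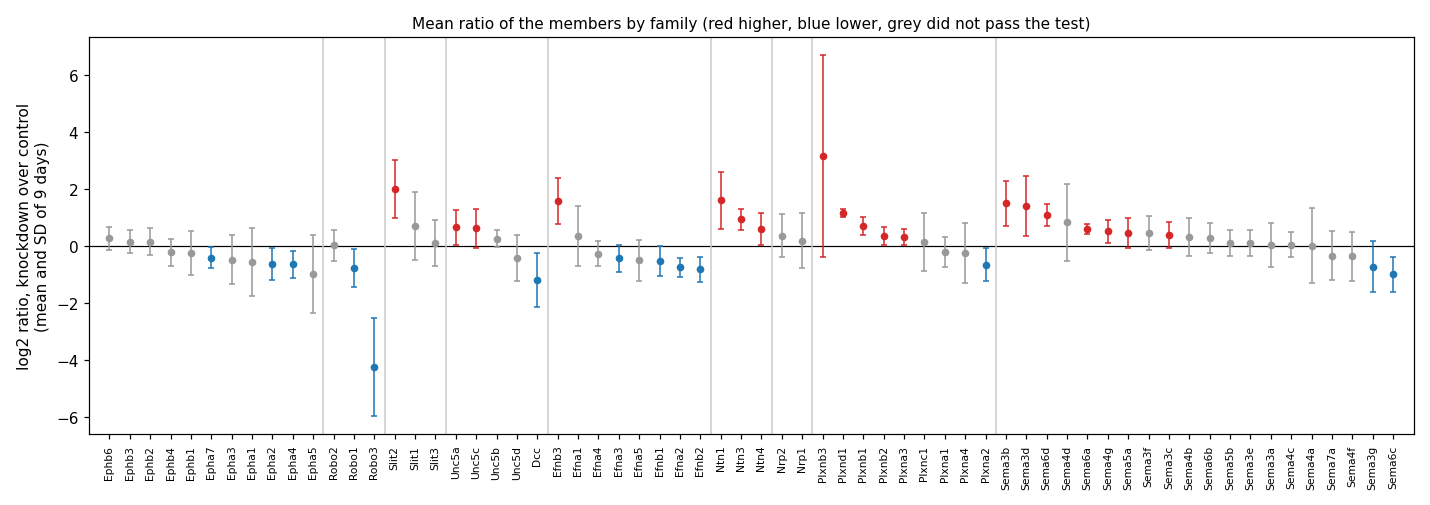
Mean log2 ratio of each of the 64 members, knockdown over control, grouped by family, with SD over 9 days as bars. Red points were higher and blue points lower in the test, and grey points did not pass it. Robo3 lies farthest below 0 at -4.23 and Plxnb3 farthest above at 3.17, the latter with an SD of 3.54.

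Of the Slits and their Robo receptors, Slit2 was higher and Robo1 and Robo3 were lower in the knockdown line. Slit2, a secreted midline repellent (Gene ID 20563, NCBIM37 chromosome 5, 48374394 to 48697521, plus strand), had 464 normalized counts in its lowest, 597 in its median and 817 in its highest control library. In the knockdown libraries the lowest was 959, the median 2582 and the highest 7215. Every knockdown library was above every control library, with 449 to 5642 rebuilt reads per library. Among the 41 members with rebuilt reads past the filter Slit2 was the 1 whose lines did not overlap, and 2.01% of 6803 genes with rebuilt reads did not overlap. In order of day, the 10 ratios of Slit2 were 2.76, 1.02, 2.17, 2.21, 3.66, 1.86, 2.92, 0.97, 0.72 and 1.55. The mean was 2.00 ± 1.01, a 4.00-fold difference (limma adjusted p = 0.000544). The difference was largest on day 4 and smallest on day 12. Slit1 had a mean of 0.71 ± 1.19 and Slit3 one of 0.11 ± 0.81, and neither passed the test. Ratios of Slit1 reached 2.43, 1.98 and 2.20 on days 0, 4 and 8, the tested days on which Slit2 was also highest, and lay at -0.39 and -0.78 on days 10 and 12.

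Robo3, a divergent Robo receptor that lets commissural axons reach and cross the midline (Gene ID 19649, NCBIM37 chromosome 9, 37223254 to 37240760, minus strand), went the other way. In the control line its lowest library had 266 normalized counts, the median was 502 and the highest, on day 8, 1382. The knockdown library of day 0 held 390. From day 1 on, in order of day, the knockdown libraries held 25.7, 20.4, 17.2, 59.4, 17.5, 26.0, 14.1, 25.4 and 15.1. Behind these values stood 13 to 1406 rebuilt reads per library. The lines were thus close on day 0, with a ratio of -0.34, and apart from day 1 on, with ratios from -3.62 to -6.45. The mean was -4.23 ± 1.72, 18.8-fold lower in the knockdown line (limma adjusted p = 0.000179). Its step from day 0 to day 1 in the knockdown line was -3.91, the deepest fall in that step among the 64 members past the filter. Robo1, which transduces Slit repulsion, had a mean of -0.78 ± 0.67 (adjusted p = 0.00917 by limma) and was lower on 8 of 9 days, while Robo2 did not pass at 0.02 ± 0.53. The ratios of both fell with day (Robo1 -0.12 and Robo2 -0.09 log2 units per day, limma adjusted p = 0.0128 and 0.0161). Robo4, the endothelial member, was below the filter.

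Netrins were higher in the knockdown line and their attractive receptor was lower. All 3 netrins past the filter passed the test. Ntn1, the floor plate attractant (Gene ID 18208, NCBIM37 chromosome 11, 68022866 to 68214325, minus strand), had ratios of 2.93, 0.53, 1.38, 1.39, 3.08, 1.71, 2.48, 0.83, 0.36 and 1.42 in order of day. Like Slit2 it was highest on days 0, 4 and 8 and lowest on day 12. The mean of Ntn1 was 1.5997 ± 1.01, a 3.03-fold difference (limma adjusted p = 0.00174). Ntn3 had a mean of 0.94 ± 0.37, with 9 of 9 days higher (adjusted p = 0.000243 by limma), and Ntn4 had a mean of 0.60 ± 0.56 (adjusted p = 0.0149), with a ratio of -0.78 on day 6. With day 6 kept Ntn4 no longer passed. Ntn1 shares 127 exonic bases with another annotated gene and Ntn3 228, and the counting used here cannot tell those reads apart.

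Dcc, the receptor through which netrin-1 attracts, was lower in the knockdown line. Its control libraries ran from 749 through a median of 1057 to 2201 normalized counts, and its knockdown libraries from 146 through 569 to 1141. Its ratios in order of day were -0.27, -2.32, -2.73, -1.12, -1.30, -0.93, -1.83, -0.82, -0.49 and 0.06. The lines overlapped, differing most on days 1 and 2 and hardly at all on days 0 and 14. The mean was -1.20 ± 0.94, 2.30-fold lower (limma adjusted p = 0.00565). Of the repulsive netrin receptors, Unc5a (0.65 ± 0.62, limma adjusted p = 0.0154) and Unc5c (0.62 ± 0.68, adjusted p = 0.0298) were higher, and Unc5b (0.26 ± 0.30) and Unc5d (-0.41 ± 0.80) did not pass. The call of Unc5c was lost when any 1 of days 0, 3, 4, 8, 10 and 12 was left out and in the exact sign-flip permutation test, and that of Unc5a with day 6 kept.

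Of the 8 ephrins 4 were lower, 1 (Efnb3) was higher and 3 did not pass. Efnb3, a midline repellent for corticospinal axons (Gene ID 13643, NCBIM37 chromosome 11, 69367594 to 69373707, minus strand), had 213 normalized counts in the lowest, 417 in the median and 567 in the highest control library. Its knockdown libraries ran from 355 through a median of 1164 to 3395, so the lines overlapped in range but the knockdown library was the higher on each day. Ratios of 2.85, 2.46 and 2.37 were reached on days 0, 4 and 8, against 0.71 on days 1 and 12. The mean was 1.58 ± 0.80, a 2.98-fold difference (limma adjusted p = 0.00059). Slit2 and Ntn1 were also highest on days 0, 4 and 8.

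**Figure D2:**
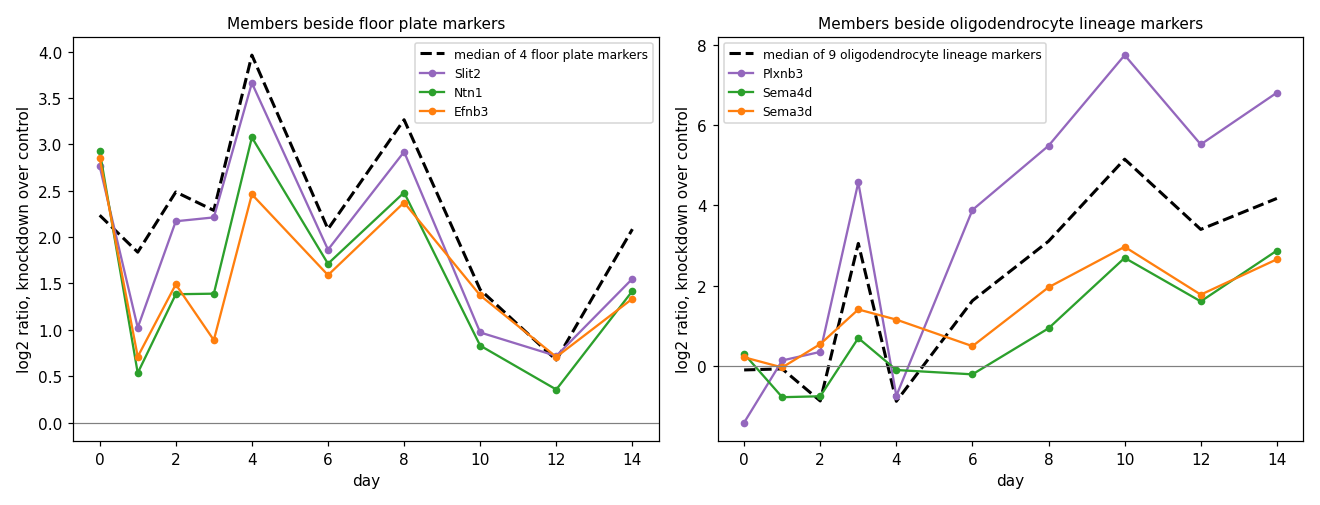
Log2 ratio by day, knockdown over control, of Slit2, Ntn1 and Efnb3 beside the median of 4 floor plate markers (left) and of Plxnb3, Sema4d and Sema3d beside the median of 9 oligodendrocyte lineage markers (right). On the left the 3 members are high on days 0, 4 and 8 and the markers on days 4 and 8, with a marker median of 3.96 and a Slit2 ratio of 3.66 on day 4, and on the right the marker median reaches 5.15 and Plxnb3 7.74 on day 10.

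The floor plate median ratio, in order of day, was 2.24, 1.84, 2.49, 2.29, 3.96, 2.09, 3.27, 1.43, 0.67 and 2.09. It had its highest values on days 4 and 8 and its lowest on day 12. The 3 ligands in the plot of members beside markers were also lowest on day 12, and were highest on days 0, 4 and 8. Other lists had some of these high days. The endothelial median ratio was 1.29, 1.17 and 0.42 on days 0, 4 and 8 and -0.83 on day 12. The fibroblast median ratio was 0.37, 0.85 and 0.59 on days 0, 4 and 8 and -1.46 on day 12. The part of these markers in the ratios of Slit2, Ntn1 and Efnb3 was not tested.

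Among the ephrins that were lower, Efnb2, an ephrin of arteries and of the hindbrain, had a mean of -0.81 ± 0.44 and Efna2 one of -0.75 ± 0.33, both on 9 of 9 days (limma adjusted p = 0.000999 and 0.000487). The control libraries of Efna2 ran from 247 through a median of 335 to 411 normalized counts, and the knockdown libraries from 102 through 210 to 314. Efnb1 had a mean of -0.53 ± 0.52 (limma adjusted p = 0.0205) and ratios near 0 on days 0, 4 and 8 against -1.20 on days 12 and 14. Its call was lost in the exact sign-flip permutation test (adjusted p = 0.059). Efna3 (-0.43 ± 0.47, adjusted p = 0.0315) lost its call when any 1 of days 2, 3, 8, 10 and 12 was left out. Efna1, Efna4 and Efna5 did not pass.

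Of the 11 Eph receptors past the filter 3 were lower and the other 8 did not pass, and their median mean ratio was -0.41. Epha4, a receptor for ephrins of both classes, had control counts of 754 to 1880 (median 1035) and knockdown counts of 362 to 1376 (median 803). The mean ratio was -0.64 ± 0.47 with the same sign on 9 of 9 days (limma adjusted p = 0.00518). The deepest ratio was -1.51 on day 10, and that of day 6 was 0.15. Epha2 had a mean of -0.63 ± 0.57 (adjusted p = 0.0133), with ratios between -0.55 and -0.0032 up to day 8 and of -1.53, -1.47 and -1.02 on days 10, 12 and 14. Epha7 had a mean of -0.41 ± 0.37 (adjusted p = 0.0169). Without the pairing by day the limma adjusted p was 0.102 for Epha2 and 0.163 for Epha7. The B-class receptors Ephb1, Ephb2, Ephb3, Ephb4 and Ephb6 did not pass, with means between -0.23 and 0.28.

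Semaphorins formed the largest family, with 20 members past the filter, of which 7 were higher and 2 lower. Sema3b, a secreted class 3 semaphorin, had a mean of 1.498 ± 0.78 and was higher on 9 of 9 days, with 2.57 on day 0, 2.38 on day 4 and 2.33 on day 8 (limma adjusted p = 0.00067), but its ratio on day 6 was -2.08. Sema3d had a mean of 1.41 ± 1.04 (adjusted p = 0.00412). Its control libraries ran from 141 through 200 to 422 normalized counts and its knockdown libraries from 232 through 488 to 1570, with ratios of 0.22 and -0.03 on days 0 and 1, of 1.16 or more on the tested days from day 3 on, and of 0.50 on day 6. The transmembrane Sema6d had 685 to 1250 counts (median 887) in the control and 1017 to 2474 (median 1970) in the knockdown line. Its mean was 1.09 ± 0.37, a 2.13-fold difference (limma adjusted p = 0.000117), though on day 6 the ratio was -0.18. Sema6a showed a smaller difference of 0.61 ± 0.18 (adjusted p = 0.000179), even over the days tested. That of Sema4g was 0.51 ± 0.39 (adjusted p = 0.00717), and both were higher on 9 of 9 days. On day 6 the ratio was -0.50 for Sema6a and -0.41 for Sema4g. Sema6c was lower at -0.99 ± 0.61 (adjusted p = 0.00177). The calls of Sema3c (0.39), Sema5a (0.47) and Sema3g (-0.73) were each lost in at least 6 of the 9 fits that left out 1 day. The other 11 semaphorins did not pass.

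Plexins, the semaphorin receptors, were higher in 5 and lower in 1 of 9 cases. Plxnd1, the receptor for Sema3e (Gene ID 67784, NCBIM37 chromosome 6, 115904829 to 115945023, minus strand), had 289 normalized counts in the lowest, 509 in the median and 594 in the highest control library, against 558, 1043 and 1452 in the knockdown line. Its ratio lay between 0.95 and 1.37 on the 9 days tested and was 0.25 on day 6. The mean of 1.16 ± 0.15, a 2.24-fold difference, was thus nearly the same from day 0 to day 14 (limma adjusted p = 7.46e-06). Plxnb1, a receptor for Sema4d, was higher on 9 of 9 days at 0.71 ± 0.31 (adjusted p = 0.000455), and Plxna3 at 0.31 ± 0.28 (adjusted p = 0.0218). On day 6 the ratio was -0.07 for Plxnb1 and 0.02 for Plxna3. Plxnb2 had a mean of 0.34 ± 0.31 (adjusted p = 0.0192) and lost its call with day 6 kept. Plxna2, a receptor for class 6 semaphorins, was lower at -0.65 ± 0.58 (adjusted p = 0.0112). The neuropilins Nrp1 (0.19 ± 0.96) and Nrp2 (0.36 ± 0.75) did not pass.

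Plxnb3, a plexin found in oligodendrocytes (Gene ID 140571, chromosome X of NCBIM37 from 71002429 to 71017853, plus strand), had the widest range of ratios among the 64 members tested. Its control libraries held 419, 160, 85.3, 60.3, 93.7, 41.7, 25.8, 25.8, 77.04 and 41.7 normalized counts in order of day. Its knockdown libraries held 157, 180, 108, 1437, 56.3, 629, 1140, 5485, 3547 and 4635. The knockdown library was below the control on days 0 and 4 and far above it on day 3 and from day 6 on, with 24 to 5063 rebuilt reads per library. The lowest ratio was -1.40, on day 0, and the highest 7.74, on day 10, while days 3 and 4 gave 4.57 and -0.73. The mean was 3.17 ± 3.54 (limma adjusted p = 0.0279), and the call was lost when any 1 of days 3, 8, 10, 12 and 14 was left out and in the exact sign-flip permutation test. Without day 10 the mean was 2.59. The oligodendrocyte lineage median was also high on day 3 (3.06) and low on day 4 (-0.87), the pattern of Plxnb3. Its part in the course of Plxnb3 was not tested.

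**Figure D3:**
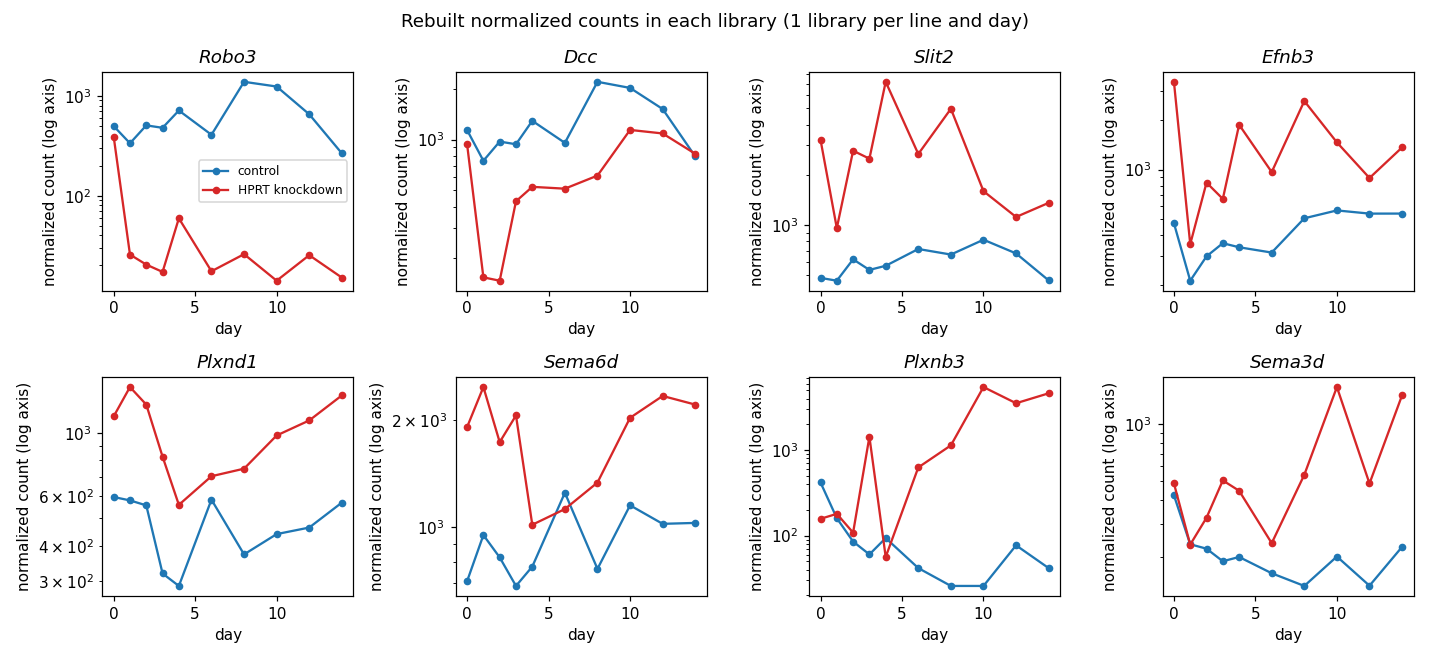
Rebuilt normalized counts by day (log axis) in each library of the control (blue) and HPRT knockdown (red) lines, 1 library per line and day, for Robo3, Dcc, Slit2, Efnb3, Plxnd1, Sema6d, Plxnb3 and Sema3d. The Slit2 libraries of the knockdown line, from 959 to 7215, lie above all those of the control line, from 464 to 817, and Robo3 in the knockdown line goes from 390 on day 0 to 25.7 on day 1.

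**Figure D4:**
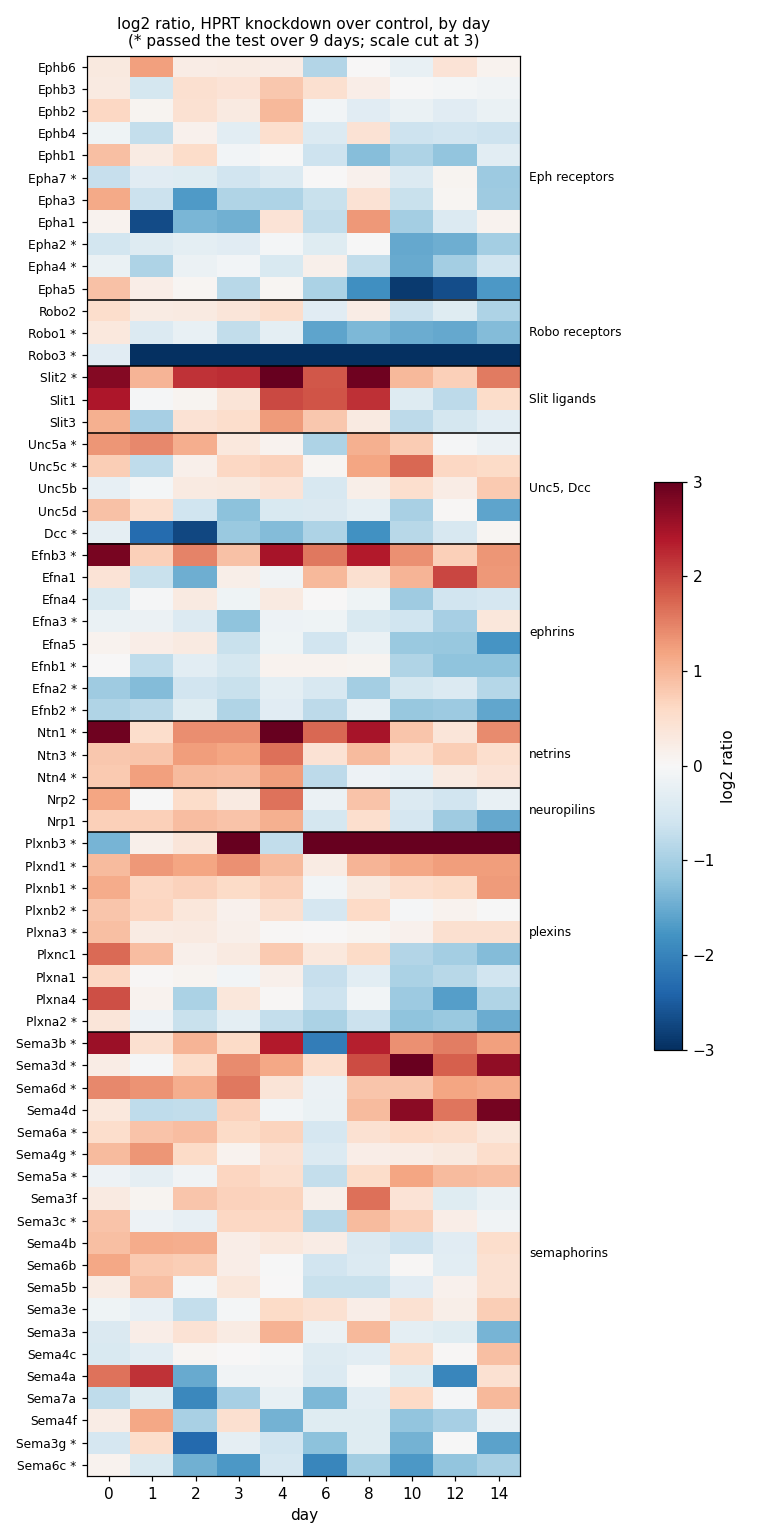
Log2 ratio, knockdown over control, of the members past the filter on each of the 10 days, grouped by family, with red for higher and blue for lower in the knockdown, colours capped at 3 on either side of 0 and asterisks on members that passed the test. Robo3 is low on every day but day 0, at -0.34, and Plxnb3 changes from -1.40 on day 0 to 6.80 on day 14.

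The next comparison asked whether the difference between the lines changed with time. The slope of the ratio on day passed the test in 15 of the 64 members, with 6 rising and 9 falling. Among all genes 14.0% passed, 7.34% rising and 6.69% falling. Plxnb3 rose by 0.59 ± 0.12 log2 units per day (SE, limma adjusted p = 0.0176). Sema4d, which signals through plexin-B receptors, rose by 0.23 ± 0.04 (adjusted p = 0.0133), from a ratio of 0.31 on day 0 to 2.88 on day 14, and Sema3d by 0.18 ± 0.03 (adjusted p = 0.0128). Efna1 at 0.16, Sema7a at 0.13 and Sema5a at 0.09 per day were the others that rose. Efna1 held few reads, with 19.2 to 83.2 normalized counts in the control and 14.96 to 204 in the knockdown line.

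Of the 6 rising ratios 5 were those of ligands, and of the 9 falling ratios 8 were those of receptors, where 34 ligands and 30 receptors were tested. The rising count was 3 without day 12 or without day 14, and of the 5 rising ligands only Sema3d kept its call in each fit that left out 1 day. Sema7a lost it in 7 of these 9 fits, Efna1 in 5, Sema5a in 3 and Sema4d in 1 (without day 14). Of the 8 falling receptors, Ephb1 lost its call in 7 of these fits and Robo2, Plxna1 and Plxna2 in 1 each. Epha5, Robo1, Nrp1 and Plxnc1 kept theirs in each fit. Epha5, an Eph receptor of forebrain neurons, went from a ratio of 0.87 on day 0 to -2.88 on day 10 and -1.73 on day 14, a slope of -0.23 ± 0.04 per day (limma adjusted p = 0.0126). Its control counts rose from 197 on day 0 to 643 on day 10, while its knockdown counts fell from 358 to 87.2. Nrp1, the neuropilin that binds Sema3a and VEGF, went from 1054 to 4305 counts in the control between days 0 and 14 and from 1720.2 to 1472 in the knockdown line. Its ratio was 0.72 on day 0 and -1.54 on day 14, with a slope of -0.17 ± 0.03 (adjusted p = 0.00913). Plxnc1, the receptor for Sema7a, fell by 0.18 per day on the log2 scale (adjusted p = 0.0121) and Efna5 by 0.12 (adjusted p = 0.0128). Ephb1, Robo1, Robo2, Plxna2 and Plxna1 fell by between 0.12 and 0.09 per day. The median ratio of the neuron markers in order of day was -0.25, -0.69, -2.33, -1.76, -0.51, -1.46, -2.01, -2.41, -2.95 and -2.41, and their part in these ratios was not tested. On day 2 the ratios of Epha5, Nrp1, Plxnc1, Efna5 and Ephb1 were 0.05, 0.93, 0.15, 0.26 and 0.56. Those of Robo1, Robo2, Plxna2 and Plxna1 on that day were -0.21, 0.26, -0.67 and 0.09. In the same order of members, the day 10 ratios were -2.88, -0.49, -0.88, -1.11, -0.92, -1.49, -0.65, -1.21 and -0.94.

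**Figure D5:**
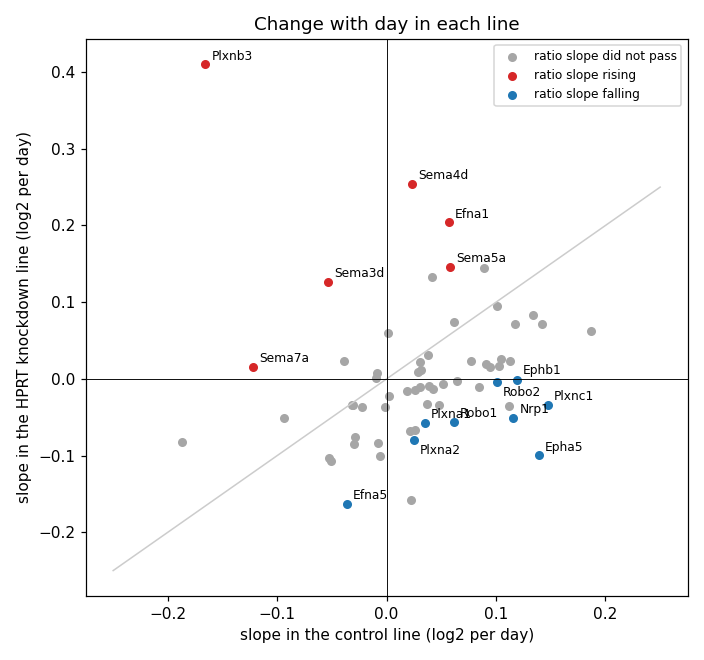
Slope on day in the control line (horizontal) against that in the knockdown line (vertical) for the 64 members, in log2 units per day. The ratio slope rose in red points, fell in blue points and did not pass the test in grey ones, and the grey diagonal marks equal slopes. Plxnb3 stands apart at -0.17 in the control and 0.41 in the knockdown line, and Epha5 lies at 0.14 in the control and -0.10 in the knockdown line.

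Within each line the course was taken from tables of consecutive days. In the control line 27 of 64 members changed with day, 23 rising and 4 falling, where 43.3% of all genes changed, 19.6% rising and 23.7% falling. The steepest rises were those of Sema4a (0.19 log2 units per day, limma adjusted p = 0.00533), Plxnc1 (0.15, adjusted p = 0.000207) and Sema6b (0.14, adjusted p = 0.000621). Also rising were all 3 netrins, Robo1, Robo2, Epha5, Ephb1, Ephb2, Slit3, Unc5a, Unc5d and Nrp1. Epha1, with 104 normalized counts on day 0 and 21.001 on day 14, fell by 0.19 per day (adjusted p = 0.00194), and Plxnb3, Unc5b and Efnb2 fell as well. The control table of days 3 and 4 did not close with the others, and with values joined over the other tables, 28 of the members changed.

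In the knockdown line 10 of 64 members changed with day, 5 rising and 5 falling, where 12.7% of all genes changed, 7.33% rising and 5.40% falling. Plxnb3 (0.41 per day, limma adjusted p = 0.0252), Sema4d (0.25, adjusted p = 0.00862), Efna1 (0.20, adjusted p = 0.0371), Sema5a and Sema3e rose. Efna5 (-0.16, adjusted p = 0.0105), Efnb2 (-0.10, adjusted p = 0.0447), Sema4b (-0.10, adjusted p = 0.0438), Plxna2 and Plxna1 fell. This count rests on single libraries, since it was 0 without day 14 (limma, with 15 members at an unadjusted p under 0.05), 3 without day 12, 5 without day 10 or day 2 and 20 without day 0.

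Day by day, without a test, the number of members at least 1.5-fold apart was compared with the share of all genes. It was 35 of 64 on day 0, where 41.9% of all genes were that far apart, and then 32 (45.7%), 30 (34.6%), 28 (35.5%) and 27 (35.2%) on the following days up to day 4. From day 6 to day 14 it was 29 (26.2%), 29 (31.9%), 42 (38.2%), 31 (36.0%) and 39 (37.3%). Day 10 had 65.6% of the members, day 14 had 60.9% and day 0 had 54.7%. The direction varied between days. From day 0 to day 4 the members higher in the knockdown line numbered 30, 19, 15, 15 and 21 and the lower ones 5, 13, 15, 13 and 6. From day 6 to day 14 the higher ones numbered 7, 19, 16, 12 and 17 and the lower ones 22, 10, 26, 19 and 22. The members' median ratio in order of day was 0.46, 0.08, 0.15, 0.22, 0.24, -0.40, 0.18, -0.34, -0.19 and -0.06, with that of all genes between -0.03 and 0.02 on each day. The fibroblast median ratio, in order of day, was 0.37, -0.31, -0.53, -0.15, 0.85, -0.83, 0.59, -1.25, -1.46 and -1.05. Its part was not tested.

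The steps between consecutive days were compared in the same way. From day 0 to day 1, 32 of 64 members fell at least 1.5-fold in the knockdown line (18.0% of all genes) and 20 in the control line (10.6%). From day 4 to day 6, 28 fell in the knockdown line (12.7% of all genes) and 9 in the control line (12.2%). From day 6 to day 8, 28 rose in the knockdown line (15.8%) and 15 in the control line (12.7%). Steps away from day 6 also differed between the lines. From day 8 to day 10, 22 fell in the knockdown line (14.9% of all genes) and 0 in the control line (3.45%), while 10 and 6 rose. From day 2 to day 3, 14 rose in the knockdown line (11.7%) and 1 in the control line (3.20%), while 10 and 2 fell. Day 6 was the day the study set aside, and the marker list of radial glia and astrocytes also had a median ratio below 0 on that day, at -0.71, against 1.26 on day 4 and 0.58 on day 8. Over days 4, 6 and 8 the fibroblast median ratio was 0.85, -0.83 and 0.59, and that of the pluripotent list -1.41, 0.36 and -1.34. The part of these lists in the steps was not tested.

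Levels per kilobase of exon placed the members against each other among the 46 with rebuilt reads. In the control line Efnb1 had the highest median, with 606 normalized counts per kilobase, followed by Nrp1 at 234, Nrp2 at 194, Sema4c at 183 and Epha2 at 173. In the knockdown line Efnb1 was again first at 400, followed by Efnb3 at 366, Nrp1 at 303, Nrp2 at 218 and Sema6d at 187. Efnb3 was the 10th of the 46 in the control line and Slit2 the 28th, at 131 and 39.5 per kilobase, and Slit2 was the 7th in the knockdown line at 171. Robo3 was the 17th in the control line and the 40th in the knockdown line, at 74.1 and 3.38 per kilobase. Neighbors in these orders overlapped in their ranges over days.

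Genes that work with the guidance receptors were read from the same fit. The list held 70 names of co-receptors, adhesion partners and intracellular effectors, of which 69 were found in 70 rows that all passed the filter. Of these rows 33 differed, 24 higher and 9 lower (47.1%, beside 52.9% of all genes), with a median mean ratio of 0.09. The 4 highest were Cntn1, a contactin of axons and oligodendrocyte contacts (2.39 ± 2.01, limma adjusted p = 0.00759), Chn2, a Rac-inactivating chimaerin (1.87 ± 1.11, adjusted p = 0.00129), the adhesion molecule Dscaml1 (1.75 ± 0.71, adjusted p = 0.0002) and the membrane-bound netrin relative Ntng2 (1.74 ± 0.50, adjusted p = 4.62e-05). The 4 lowest were Cntn2, a contactin of commissural axons (-2.93 ± 1.74, adjusted p = 0.00118), the semaphorin effectors Crmp1 (-1.15 ± 0.67, adjusted p = 0.00123) and Dpysl5 (-1.10 ± 0.61, adjusted p = 0.001), and Rgmb, a repulsive guidance molecule (-0.89 ± 0.52, adjusted p = 0.00151). Cntn2 was nearly equal in both lines on day 0, at -0.04, and reached -4.96 at its deepest. Neo1, the relative of Dcc, was higher at 0.63 ± 0.27 (adjusted p = 0.000465) on 9 of 9 days, where Dcc itself was lower.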

How the data were processed

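RNA from control and HPRT knockdown SNM cultures was sequenced with 1 library per line on each of 10 days. Per the study's methods, a TruSeq v2 kit, sequencing on a HiSeq instrument, CASAVA 1.8.2 with ELAND against NCBI37/mm9, Avadis NGS and DESeq normalization were used by the authors. This kit does not mark strand. The authors deposited log2 values in 28 tables of 2 libraries, each relative to the mean of its 2 libraries and normalized within that table, so a table gives a ratio and no level. Values had been floored at 1 normalized count, which understates ratios of low genes.

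Levels were read from the rounding step of the deposited numbers. A gene was tested when its typical log2 normalized count over all tables was at least 4, as for 13468 genes. Reads were rebuilt where at least 20 of 27 tables agreed on whole reads or whole bases of 49-base reads. Of 19041 genes with reads in at least 1 table, 8950 were rebuilt. In the simulation 370 of 400 genes were rebuilt, but their levels came from genes already rebuilt. The simulated share therefore does not carry over to all genes. Depth is known only as size factors. Per-day ratios (HPRT knockdown minus control) of 9 days were tested with limma 3.58.1 in R 4.3.3 (lmFit and eBayes, Benjamini-Hochberg adjustment over all genes, threshold 0.05), as an intercept and as a slope on day. Day 6 was left out, as in the study. Slopes within a line used consecutive-day tables added up. In simulation of the difference between the lines, 95.8% of 190 genes changed 2-fold and 0.164% of unchanged genes were called among 6902. There the noise of each library was independent, and unchanged genes had the same course in both lines apart from it. Ratios that drift over days were not simulated, so these shares may not hold for the tests here. The lines were paired by day of differentiation, within which the study swapped labels. Whether both lines were differentiated or collected together is not given in the sources used here. Same-day deviations from the line means correlated across genes with r of 0.144 to 0.428 on 8 days and -0.00827 on day 0. Deviations from a straight line over days had r of 0.0183 to 0.415, the own day being the best match on 5 of 9 days. Neighboring days of both lines form a loop of 4 tables that adds up to 0 for 91.4% to 93.0% of genes, but for 0.0594% in the loop of days 3 and 4. The fault lay in the control table, which entered only the added-up control course. For 13 members the tables disagreed by more than 1e-05, and 15 members share exonic bases with another gene on NCBIM37 (GENCODE vM1). Reads of these bases cannot be told apart without strand. Where Ntn1, Ntn3 and Nrp1 share bases with a gene on the same strand, strand would not separate them either.

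Named genes were, by rule, called members with 1 sign on 9 of 9 days, the steepest 6 ratio slopes each way and the steepest 3 slopes each way in each line, and the 4 highest and 4 lowest partner genes; other members named in the text were chosen after their values were seen. Members, gene lists and tests were chosen with earlier results of these data known. The marker Map2 and the partner Draxin were not matched by symbol. The partner list also held the symbol 2610109H07Rik, which was matched and did not pass at -0.11 ± 1.16. A gene of the floor plate list is not reported here. No column of the deposited tables belonged to another series. Alternatives covered day 6, the filter, centring, joined tables, the test, the pairing, rebuilt reads and the days left out.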

Additional observations from a re-analysis of the deposited data

Results flagged for a closer look

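Single days that stood apart from the others in the ratio of a member were sought among 34 ratios, where chance alone gives about 1 in 20. Robo3 had -0.34 on day 0 while its other days ran from -6.45 to -3.62. Plxna3 had 0.91 on day 0, with the others between 0.02 and 0.48. On day 6, Plxnd1 had 0.25 with its other days between 0.95 and 1.37, Sema3b had -2.08 with the others between 0.47 and 2.57, and Sema6a had -0.50 with the others between 0.33 and 0.92. Of these 5, 3 fell on day 6, which was not used in the tests.

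The time trends of the lines differed, by the tested slope of the ratio, for 15 members. In log2 units per day the slope was 0.588 for Plxnb3, 0.231 for Sema4d, 0.180 for Sema3d, 0.162 for Efna1, 0.128 for Sema7a and 0.0880 for Sema5a. It was -0.234 for Epha5, -0.175 for Plxnc1, -0.171 for Nrp1, -0.124 for Efna5, -0.117 for Ephb1, -0.116 for Robo1, -0.101 for Plxna2, -0.0920 for Robo2 and -0.0880 for Plxna1. The call was kept in each fit that left out 1 day for 6 of the 15, namely Epha5, Robo1, Nrp1, Plxnb3, Plxnc1 and Sema3d.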

How the results depend on the processing

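Of the 32 members that differed between the lines, 26 were called in each fit that left out 1 day and 18 in every setting tried. The number called was 26 to 33 in the fits that left out 1 day, 28 with day 6 kept, 26 by the exact sign-flip test and 27 at the stricter filter. On rebuilt reads it was 19, of 41 members that could enter. The number with a changing ratio was 10 to 15 with 1 day left out (10 without day 12 or day 14) and that of control trends 22 to 32. Trends in the knockdown line numbered 0 to 20 with 1 day left out and 1 on log2(day + 1). The cause of that difference was not tested. At 2-fold in place of 1.5-fold, 178 rather than 322 member ratios were that far apart over the 10 days. Partner calls ranged from 28 to 32 and the median of the mean ratios from 0.06 to 0.19 with 1 day left out. Mean ratios were recomputed under each alternative for 33 members. Among these the direction changed for Plxnc1 and Sema4a, which did not pass. Plxnc1 was -0.063 without day 0 (highest 0.31, without day 14), and Sema4a was -0.028 with day 6 kept and -0.25 to 0.26 with 1 day left out. Centring the ratios changed the sign of no named member.

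Without the pairing by day (no block), 24 members (14 higher, 10 lower) and 29 partner rows differed, beside 32 and 33 with it. Beside the 9 lost calls Epha5 was called in this fit. The smallest p of the sign-flip test over 9 days is 0.00391. The depth behind each value limits low members most, such as Efna1, Sema3g and Unc5a, and no counting intervals are given because reads were rebuilt for 46 members.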
